A study of Mus musculus with 12 samples.

Results

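The 10 genes described here, Gap43, Jun, Sox11, Gal, Npy, Vgf, Nts, Gadd45a, Ecel1 and Flrt3, are known for their induction in neurons whose axons have been damaged, or for their part in axon growth. They were taken by gene name from 38924 genes in each file, of which 17995 passed a filter on low counts and were tested. The name search returned 11 rows, because Flrt3 stands in the files under 2 identifiers. The second of them (ENSMUSG00000079021) held 1.4 expected counts in all 12 libraries together and was not tested, and all 10 genes were tested through their main rows.

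Whole spinal cord was collected from 1-week-old mice of mixed strain, labelled B6J;CAST. The 6 P278KY mice carried the P278KY allele of Gars over a wt allele, and the 6 wt mice did not carry it. Gars encodes glycyl-tRNA synthetase, and the series title places this age before the onset of disease. By label, 3 mice of each genotype were female and 3 male, and each mouse gave 1 poly(A) RNA library. Libraries are named by labelled sex, genotype and mouse number.

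A neuron whose axon is cut or crushed switches on a set of regeneration-associated genes. The kinase DLK signals along the axon to JNK, which phosphorylates c-Jun, the product of Jun, and c-Jun with factors such as ATF3 and SOX11 drives growth genes. Injured sensory and motor neurons also change their neuropeptides, with galanin, neuropeptide Y and VGF among those known to appear. In a developing cord many of the same genes are expressed without injury, by neurons that are still extending axons and by peptide-containing interneurons of the dorsal horn.

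Total expected counts ran from 27713981 to 32421525 in P278KY libraries and from 28701414 to 43219891 in wt libraries. Sex marks went against the label in 2 wt libraries: that labelled female wt 14 held Xist at 0.533 CPM (counts scaled to library size) and the Y-linked gene Ddx3y at 45.1 CPM, and that labelled male wt 19 held Xist at 860 CPM and Ddx3y at 0.0233 CPM. The library labelled female wt 14 also stood apart in markers of sensory ganglion neurons, given with the marker lists. General neuron markers (9 of 9 tested, among them Rbfox3, Snap25 and Map2) summed to 5519 to 6479 CPM in P278KY libraries and to 5654 to 7161 CPM in wt libraries.

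None of the 10 genes differed between genotypes by the test, and in none did the P278KY and wt libraries separate. All 10 were expressed in every library, from 5.14 to 437 TPM (a level scaled to transcript length and library size). Fitted log2 fold changes of P278KY over wt ran from -0.04 (Vgf) to 0.11 (Gal), with 5 genes above 0 and 5 below. Across the 10 genes the 95% intervals reached no lower than 0.804-fold and no higher than 1.27-fold. A change of the whole-cord level of the size of a doubling, in either direction, thus lay outside every interval. Since RNA came from whole tissue, fewer cells of a type and less RNA per cell cannot be told apart, and the values are sums over all cells that express the gene. The intervals do not bound a change confined to a small share of those cells.

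**Figure D1:**
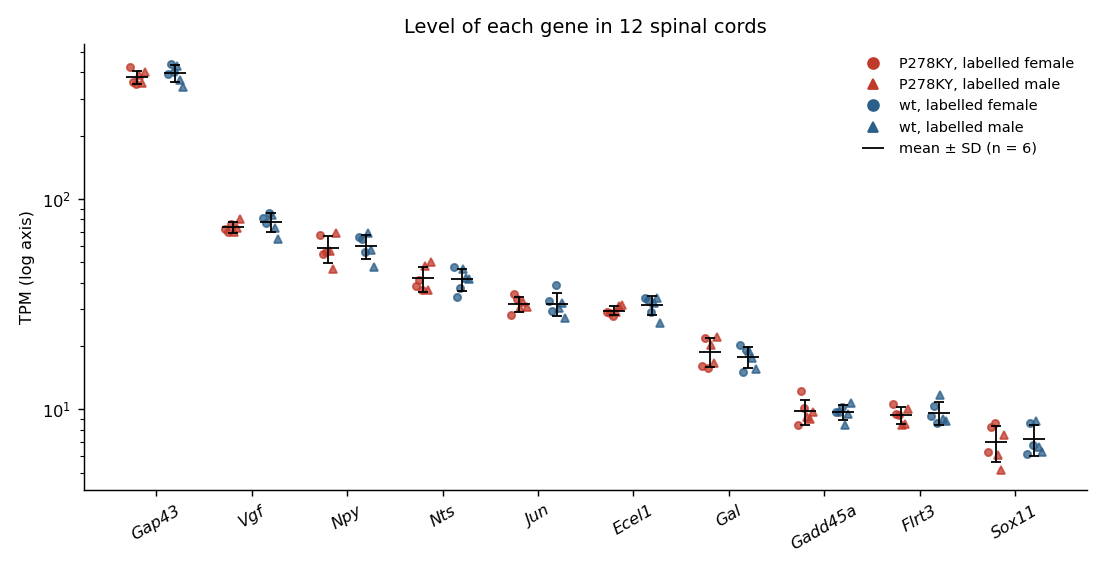
TPM of each gene in each library on a log axis, P278KY in red and wt in blue, circles for libraries labelled female and triangles for those labelled male, with the mean ± SD of 6 libraries. Gap43 stands far above the other 9 genes, and the libraries of both genotypes overlap for every gene.

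Gap43 encodes a growth cone membrane protein that binds calmodulin and regulates actin in extending axons. It was the most abundant of the 10, above 98.6% of the tested genes. Its lowest, median and highest levels were 351, 374 and 423 TPM in P278KY libraries, against 340, 398 and 437 TPM in wt libraries. The ranges overlapped almost wholly, and both the highest and the lowest TPM were in wt libraries. In CPM, the scale that was tested, the lowest value was in female P278KY 7 (248 CPM). The fitted fold was 0.983 (95% interval 0.890 to 1.09; edgeR quasi-likelihood, unadjusted p = 0.718).

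Of the transcription factors, Jun encodes a subunit of the AP-1 factor and is the nuclear target of axonal JNK signalling. Jun stood at 28.1, 31.5 and 35.4 TPM (lowest, median, highest) in P278KY libraries, against 27.3, 31.3 and 39.0 TPM in wt libraries. The highest value was that of the library labelled female wt 14. P278KY over wt, the fold was 1.03 (95% interval 0.918 to 1.15; edgeR unadjusted p = 0.621). Junos, an antisense gene, shares 232 exon bases with Jun but averaged 14.3 counts per library, against 1815 for Jun.

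Sox11, a SoxC factor of immature neurons that promotes axon growth in sensory neurons, was the least abundant of the 10. It was at 5.14, 6.91 and 8.63 TPM in P278KY libraries, against 6.13, 6.68 and 8.76 TPM in wt libraries. Expected counts of Sox11 were 155 to 296 in P278KY libraries and 206 to 327 in wt libraries. Its SE was the largest of the 10, although Gal and Gadd45a had fewer counts on average. Male P278KY 3 and male P278KY 5 lay below all wt libraries in TPM, and only male P278KY 5 did so in CPM, the scale that was tested. The fold was 0.992 (95% interval 0.804 to 1.22; edgeR unadjusted p = 0.934).

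Gadd45a encodes a stress sensor of the DNA damage response that is also induced in sensory neurons after nerve injury. It was at 8.42, 9.47 and 12.2 TPM in P278KY libraries, against 8.38, 9.75 and 10.7 TPM in wt libraries. The highest TPM belonged to female P278KY 7, and the other 5 P278KY libraries lay within the wt range. In CPM, the scale that was tested, the highest value was that of the library labelled male wt 19 (6.44 CPM). The fold was 1.05 (95% interval 0.880 to 1.24; edgeR unadjusted p = 0.579). E230016M11Rik, on the opposite strand, shares 337 of the 1764 exon bases of Gadd45a and averaged 244 counts against 178 for Gadd45a, so reads of one may be counted for the other where strand was not used. Its own log2 fold change was -0.02 ± 0.12 (SE).

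Among the neuropeptide genes, Gal encodes galanin, which injured sensory and motor neurons induce and which some dorsal horn interneurons contain. Levels were 15.8, 18.4 and 22.2 TPM in P278KY libraries, against 15.1, 18.3 and 20.2 TPM in wt libraries. Female P278KY 7, male P278KY 3 and male P278KY 13 lay above all wt libraries, and the other 3 P278KY libraries lay in the lower part of the wt range. Gal had a fold of 1.08 (95% interval 0.914 to 1.27; edgeR unadjusted p = 0.339, the smallest of the 10).

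Npy encodes neuropeptide Y, a transmitter of inhibitory dorsal horn interneurons that large sensory neurons switch on after nerve injury. Levels were 46.5, 56.3 and 69.0 TPM in P278KY libraries, against 47.4, 60.6 and 68.6 TPM in wt libraries. The P278KY libraries held both the highest and the lowest value, in male P278KY 13 and male P278KY 5. Npy had a fold of 0.993 (95% interval 0.851 to 1.16; edgeR unadjusted p = 0.920).

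Nts encodes the precursor of neurotensin, a peptide of excitatory dorsal horn interneurons. It was at 36.8, 40.0 and 49.9 TPM in P278KY libraries, against 34.2, 41.8 and 47.4 TPM in wt libraries. Male P278KY 3 and male P278KY 13 were above all wt libraries, and the other 4 P278KY libraries were below the wt median. Nts had a fold of 1.03 (95% interval 0.918 to 1.16; edgeR unadjusted p = 0.560).

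Since Jun acts through AP-1 and genes of ATF4 and CHOP are a known part of the response to mutant Gars, the promoter windows of the 10 genes, 250 bases before to 50 after the start, were searched on both strands for TGANTCA (AP-1), TGACGTCA (cAMP response element) and TGATGNAA (core of the ATF4 and CHOP element). RefSeq windows (GRCm38.p6) were at hand for 8 of the 10, all but Gap43 and Vgf. Nts was the 1 gene of these 8 with a match, and it had both an AP-1 and an ATF4 and CHOP match, while none of the 8 matched TGACGTCA. Of all 32851 windows, 7.81% held the AP-1 motif, 3.97% the ATF4 and CHOP core and 1.79% the cAMP response element. The Nts stretches are shown because they are the only matches found among the 8, with the motif in capitals, on the strand of the gene (minus), 5′ to 3′. A match is a run of letters and not a measured site.
Nts, AP-1 match 207 bases before the start, chr10:102490601-102490643: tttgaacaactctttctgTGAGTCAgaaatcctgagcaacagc
Nts, ATF4 and CHOP match on the opposite strand, 159 bases before the start, chr10:102490552-102490595: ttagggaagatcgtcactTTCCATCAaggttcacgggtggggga

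Vgf encodes a neurotrophin-induced secretory granule protein that is cut into several peptides, and it was the second most abundant of the 10. Levels were 69.3, 72.5 and 80.3 TPM in P278KY libraries, against 64.7, 79.0 and 86.1 TPM in wt libraries. All 6 P278KY libraries lay within the wt range. Vgf was the most precisely measured of the 10, and its fold was 0.9748 (95% interval 0.894 to 1.06; edgeR unadjusted p = 0.533).

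Of the cell surface proteins, Ecel1 encodes a membrane endopeptidase of the neprilysin family, known as a damage-induced enzyme of neurons and needed for the branching of motor axons at muscle. It was at 27.7, 29.0 and 31.3 TPM in P278KY libraries, against 25.8, 32.5 and 33.8 TPM in wt libraries. The P278KY libraries lay wholly within the wider wt range. The fitted fold was 0.996 (95% interval 0.897 to 1.10; edgeR unadjusted p = 0.927).

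Flrt3 encodes a leucine-rich repeat membrane protein that binds latrophilins and Unc5 receptors and promotes neurite growth. It was at 8.38, 9.46 and 10.6 TPM in P278KY libraries, against 8.61, 9.12 and 11.7 TPM in wt libraries. Male P278KY 3 and male P278KY 5 were just below all wt libraries in TPM, and the highest value was in male wt 6. In CPM, the scale that was tested, 0 P278KY libraries were below all wt libraries. The fitted fold was 1.01 (95% interval 0.898 to 1.14; edgeR unadjusted p = 0.847). Flrt3 lies wholly within Macrod2 on the opposite strand, and the annotation gives the pair 0 shared exon bases.

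**Figure D2:**
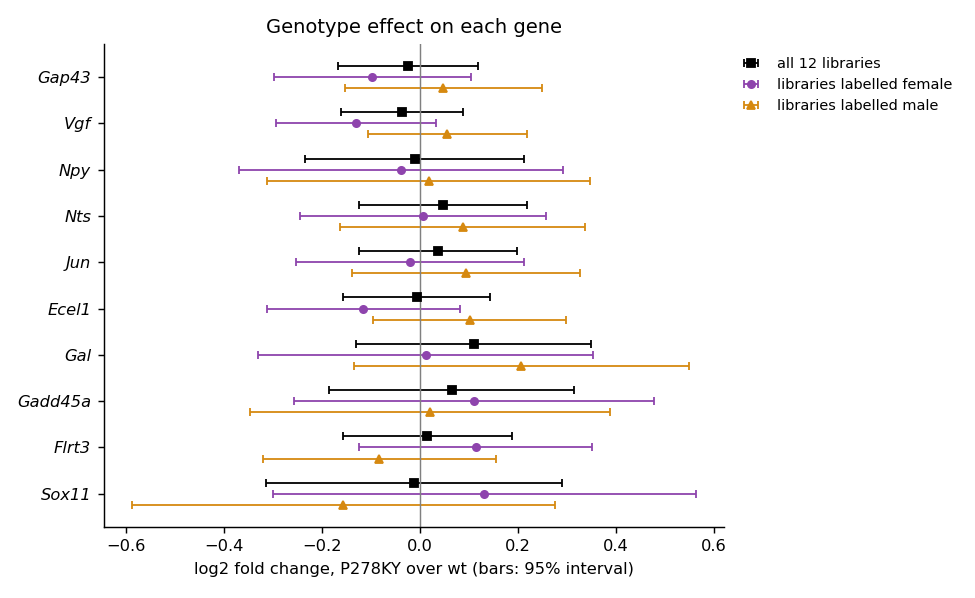
Fitted log2 fold change of P278KY over wt for each gene with its 95% interval, over all 12 libraries (black squares), within libraries labelled female (purple circles) and within those labelled male (orange triangles). All intervals include 0, and the estimates over 12 libraries lie between -0.04 and 0.11.

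By edgeR with Benjamini-Hochberg adjustment over 17995 genes, 0 of the 10 genes passed the threshold of 0.05, as did 0.00556% of all genes tested (1 gene, Fgf21). At an unadjusted p under 0.05 there were 0 of the 10, against 4.09% of all genes in edgeR. DESeq2, limma-voom and limma-trend on log2(TPM + 1) each gave 0 of the 10 by either criterion. Over all genes they called 33, 1 and 1 after adjustment, and their shares at an unadjusted p under 0.05 are not given here. The median log2 fold change of the 10 was 0.00, against -0.01 over all genes, and the median size without sign was 0.03, against 0.06. The P278KY and wt libraries did not overlap in 0 of the 10 genes, against 0.222% of all genes tested.

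The spread between mice differed among the genes. The biological coefficient of variation, edgeR's estimate of the spread between libraries beyond counting error, was 9.03% for Vgf, 9.98% for Gap43, 10.7% for Ecel1 and 11.0% for Jun. It was 12.03% for Nts, 12.2% for Flrt3 and 15.8% for Npy, and highest for Gal at 17.8%, Gadd45a at 18.3% and Sox11 at 20.5%. The 3 genes with the most spread had the fewest counts, and the median over all tested genes was 14.3%. Between the lowest and the highest library the TPM differed 1.29-fold for Gap43 and 1.70-fold for Sox11, the smallest and largest of these ratios among the 10.

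By TPM over all libraries the order was Gap43 (387 on average), Vgf (75.4), Npy (59.1), Nts (41.7), Jun (31.8), Ecel1 (30.3), Gal (18.3), Gadd45a (9.75), Flrt3 (9.51) and Sox11 (7.09). In this order 3 gaps held without overlap of the ranges: between Gap43 and Vgf, between Ecel1 and Gal, and between Gal and Gadd45a. Vgf was above Npy, Npy above Nts and Flrt3 above Sox11 in 12 of 12 libraries although the ranges overlapped. Nts was above Jun in 11 of 12. Jun exceeded Ecel1 in 6 of 12 libraries and Gadd45a exceeded Flrt3 in 8 of 12, so these neighbours did not differ beyond their spread.

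**Figure D3:**
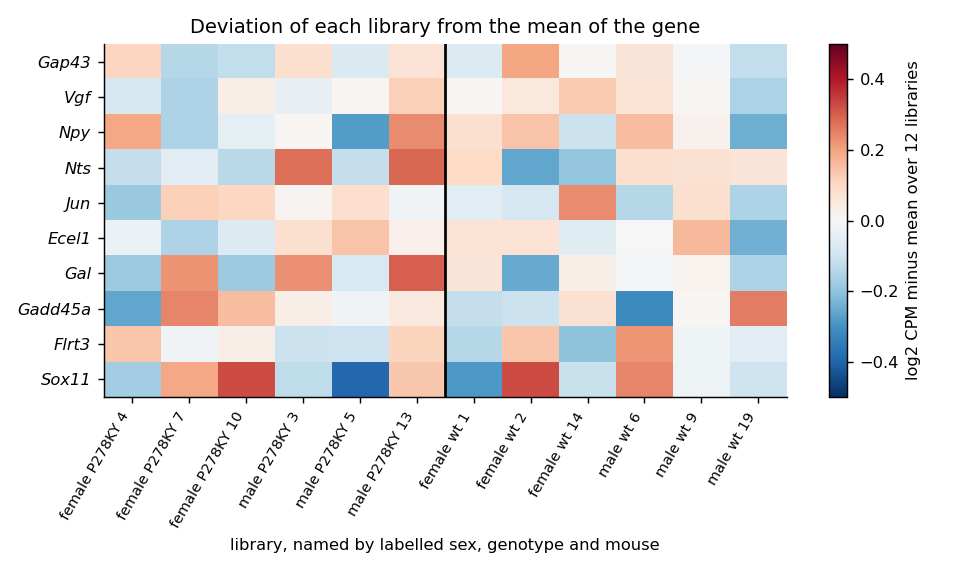
Deviation of log2 CPM from the mean of the gene over 12 libraries, with genes in rows by falling TPM and libraries in columns, P278KY left of the black line and wt right of it. No block of rows changes colour at the line, and Sox11, Gadd45a and Gal vary most between libraries.

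The 10 genes did not vary as a single group across mice. Male P278KY 13 held the highest CPM for 3 genes (Npy, Nts and Gal) and the lowest for 0. That library was also the highest in the sum of other dorsal horn neuropeptides, at 322 CPM, with wt libraries at 244 to 309 CPM. The high values there were thus not particular to the 10 genes. Of 45 pairs of genes, 27 had a positive Pearson r across the 12 libraries, with a median r of 0.09. Npy and Gap43 varied together most closely (Pearson r = 0.74, permutation p = 0.0070; Spearman rho = 0.74, permutation p = 0.0075; n = 12 libraries), and r was 0.70 without the 2 libraries farthest from the median of Npy. Nts and Gal followed (r = 0.72, permutation p = 0.0100; rho = 0.74, permutation p = 0.0076), with r = 0.42 without the 2 libraries farthest for Nts, so that relation rested partly on those libraries. Gadd45a and Npy varied in opposite directions (r = -0.67, permutation p = 0.0188; rho = -0.61, permutation p = 0.0410; r = -0.54 without 2 libraries). After Benjamini-Hochberg adjustment over the 45 pairs none passed, with adjusted p of 0.197 for Pearson and 0.171 for Spearman for Npy with Gap43 and for Nts with Gal. All values of a pair share the library and its scaling factor.

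Genes with the most similar pattern to each of the 10 over the 12 libraries, by Pearson r of log2 CPM and with no test, were as follows. For Npy they were the serotonin receptor gene Htr4 (r = 0.94), Cpne5 (0.94) and the axonal transport adaptor gene Sybu (0.93), and for Gap43 they were Nyap1 (0.91), Pafah1b3 (0.91) and Rnf138rt1 (0.91). Jun was most like Cmklr1 (0.95), a chemerin receptor gene, then Fam109b (0.90) and Htra4 (0.88), and Gadd45a was most like Ehd1 (0.93), Cdk18 (0.92) and Arhgap30 (0.91). The leading gene was Dcaf12l2 for Sox11 (0.89), Lrrc38 for Gal (0.88), Sfxn3 for Vgf (0.87), Tnnt2 for Nts (0.88), Fbxw2 for Ecel1 (0.93) and Ccdc112 for Flrt3 (0.93). Each was picked for the highest r over 12 libraries, with predicted genes left out, so these names describe these libraries only.

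Within libraries labelled female, log2 fold changes ran from -0.13 (Vgf) to 0.13 (Sox11), with 5 genes above 0. By edgeR 0 of the 10 passed, as did 0% of all genes, and 0 of the 10 had an unadjusted p under 0.05 (also by DESeq2), against 10.7% of all genes in edgeR. Within libraries labelled male they ran from -0.16 (Sox11) to 0.21 (Gal), with 8 genes above 0. Again 0 of the 10 passed in edgeR, against 0% of all genes, with 0 at an unadjusted p under 0.05 (also by DESeq2), against 4.91% of all genes in edgeR. The fitted sign differed between the sexes as labelled for 7 of the 10 genes.

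The difference in the genotype effect between the sexes as labelled was tested as an interaction. Its smallest p values were in Vgf and Ecel1, and 0 of the 10 genes passed in edgeR, as did 0% of all genes. At an unadjusted p under 0.05 there were 0 of the 10 (also by DESeq2), against 10.9% of all genes in edgeR. Ecel1 was at 28.9, 28.6 and 27.7 TPM in female P278KY 4, 7 and 10, against 33.7, 33.1 and 29.2 TPM in female wt 1, 2 and 14. In male P278KY 3, 5 and 13 it was at 29.2, 31.1 and 31.3 TPM, against 31.9, 33.8 and 25.8 TPM in male wt 6, 9 and 19. In CPM, the scale that was tested, the groups overlapped in both sexes: among libraries labelled female, P278KY 4 was at 43.9 CPM, above wt 14 at 43.2 CPM. The log2 difference of the effects, female minus male, was -0.22 ± 0.13 for Ecel1 and -0.19 ± 0.10 for Vgf (SE; edgeR adjusted p = 0.571 and 0.549). Both sex-discordant libraries enter these comparisons on the wt side, 1 in each sex as labelled. Of all 12 libraries, that labelled female wt 14 held the highest Vgf (114 CPM). That labelled male wt 19 held the lowest Vgf (93.1 CPM) and the lowest Ecel1 (38.1 CPM). The interaction with sex taken from the sex marks was not tested, so these values cannot be read as a difference between the sexes.

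Transcript use, read from the mean transcript length that each file gives, weighted by estimated abundance, could vary in 4 of the genes, since the other 6 had 1 constant value. Flrt3 had a mean length of 3905 ± 33.6 bases in P278KY libraries and 3879 ± 25.8 bases in wt libraries (SD, n = 6 each), with 3 of 6 P278KY libraries above all wt libraries. Ecel1 had 2766 ± 83.2 bases in P278KY libraries and 2698 ± 95.2 bases in wt libraries, and Gadd45a had 1164 ± 29.3 and 1145 ± 42.5 bases. Gap43 was nearly constant at 1416 ± 2.36 bases in P278KY libraries and 1417 ± 0.845 bases in wt libraries, with 3 of 6 P278KY libraries below all wt libraries. The groups overlapped in all 4 genes, and these lengths were not tested.

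On GRCm38, in GENCODE M21, Npy (chromosome 6, 49822710 to 49829507, plus strand) lies 5.21 Mb from Gars and Gadd45a (chromosome 6, 67035096 to 67037457, minus strand) lies 11.96 Mb from it. Any part of strain differences near Gars in their counts was not tested. The other 8 genes are on chromosomes 16 (Gap43), 4 (Jun), 12 (Sox11), 19 (Gal), 5 (Vgf), 10 (Nts), 1 (Ecel1) and 2 (Flrt3). The folds of the linked pair, 0.993 for Npy and 1.05 for Gadd45a, lay within the range of the other 8.

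Other injury and regeneration genes, listed from textbook knowledge, were likewise not called. Of 34 listed, 32 were tested, and 0 passed in either direction, with 18 above 0 and 14 below and a median log2 fold change of 0.03. The 2 with the smallest p were Csrp3 and Ankrd1, both also muscle genes. Csrp3 had 4.74 ± 3.52 CPM in P278KY libraries and 0.707 ± 1.27 CPM in wt libraries (SD, n = 6 each), with a log2 fold change of 3.12 ± 0.97 (SE; edgeR unadjusted p = 0.00945, the 1 gene of the list under 0.05). Skeletal muscle markers had 10 of 10 log2 fold changes above 0, led by Ryr1 (log2 fold change 1.13 ± 0.36, SE) and Myh3 (2.43 ± 0.89), with 5 at an unadjusted p under 0.05 and 0 past the threshold in edgeR. Their sums were 82.6 to 2412 CPM (median 548) in P278KY libraries and 26.3 to 941 CPM (median 48.1) in wt libraries. The 941 CPM was that of the library labelled male wt 19, and the other 5 wt libraries, at 72.1 CPM or less, lay below all 6 P278KY libraries. The part of muscle RNA in the Csrp3 value was not tested. Ankrd1 had 1.42 ± 0.79 (SE), at no more than 1.01 CPM in any library.

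Levels within this list differed widely. Atf3, an injury-induced transcription factor, ranged from 0.650 to 2.30 CPM in P278KY libraries and from 0.706 to 1.47 CPM in wt libraries, with a log2 fold change of 0.38 ± 0.28 (SE; edgeR unadjusted p = 0.201). Sprr1a, a small proline-rich protein gene that damaged sensory neurons switch on, had 1 to 6 expected counts in P278KY libraries and 3 to 13 in wt libraries, too few to be tested. The growth-associated genes Stmn2, at 568 ± 46.8 CPM in P278KY libraries and 582 ± 44.7 CPM in wt libraries, and Basp1, at 422 ± 47.7 and 419 ± 40.0 CPM, were abundant and had log2 fold changes of -0.04 ± 0.07 and 0.01 ± 0.08 (SE). Atf3, Sprr1a, Stmn2 and Basp1 fall outside the naming rule, and their values were known when they were chosen.

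Upstream of Jun, 20 genes of the JNK pathway and of AP-1, from the kinase genes Map3k12 (DLK) and Mapk8 (JNK1) to the partners Fos and Atf2, were all tested. Of these 0 passed in either direction, 10 were above 0 and 10 below, and 0 had an unadjusted p under 0.05. Mapk8ip2, a JNK scaffold gene, had the smallest p (log2 fold change -0.08 ± 0.05, SE; edgeR unadjusted p = 0.104), followed by the AP-1 family gene Batf3 (-0.35 ± 0.22; unadjusted p = 0.139).

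Receptors and binding partners of the peptides and of FLRT3 numbered 17 tested of 19 listed, with 0 past the threshold, 10 above 0 and 7 below. C3ar1, whose product is a receptor for a VGF peptide and for complement C3a, had 0.43 ± 0.26, and Galr2, a galanin receptor gene, had -0.26 ± 0.17 (log2 fold changes, SE; edgeR unadjusted p = 0.129 and 0.137). Of 12 tested close relatives of the 10 genes, such as Gadd45b, Sox4 and Flrt2, 0 passed, led by Flrt1 at -0.10 ± 0.06 and the neprilysin gene Mme at -0.28 ± 0.20.

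Other dorsal horn neuropeptides, which mark the neuron classes beside those of Gal, Npy and Nts, were not called (0 of 14, with 3 above 0 and 11 below). The neuromedin B gene Nmb had -0.30 ± 0.17 and Cartpt had 0.31 ± 0.17 (log2 fold changes, SE; edgeR unadjusted p = 0.1004 and 0.1019). Nmb ranged from 1.92 to 2.52 CPM in P278KY libraries. Wt libraries held it at 2.26 to 2.65 CPM, apart from wt 14 (female by label), which reached 5.02 CPM. Markers of sensory ganglion neurons were also high in wt 14. The part of sensory ganglion RNA in the Nmb value was not tested, so it cannot be read as dorsal horn neurons alone. Among 10 genes of peptide granules and peptide processing, 0 passed. Scg5, a chaperone of the processing enzyme PC2, was at 109 ± 15.4 CPM in P278KY libraries and 95.4 ± 6.37 CPM in wt libraries, with 0.18 ± 0.08 (SE; edgeR unadjusted p = 0.0418), and Scg3 had -0.06 ± 0.05. The median log2 fold change was -0.03 in both lists, against -0.01 over all genes.

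Neurons outside the cord express several of the 10 genes, so markers of other cells were read beside them. Sensory ganglion markers summed to 8.87 to 13.96 CPM in P278KY libraries and to 9.37 to 301 CPM in wt libraries. The high value was that of the library labelled female wt 14, the next wt library being at 18.0 CPM. All 8 tested of 9 listed markers had a log2 fold change below 0, led by Prdm12 and Scn10a, and Scn10a stood at 96.9 CPM there and at most 2.43 CPM elsewhere. Of the 10 genes, Jun and Vgf had their highest CPM and Flrt3 its lowest in that library, while the other 7 lay within the range of the other libraries. Without it, log2 fold changes of the 10 ran from -0.05 to 0.14, none moved by more than 0.06, and 0 passed in edgeR (0 at an unadjusted p under 0.05).

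Motor neuron markers (8 tested of 9 listed, 2 above 0 and 6 below, led by Isl2 and Mnx1, 0 past the threshold) summed to 138 to 226 CPM in P278KY libraries and to 137 to 353 CPM in wt libraries, the highest again in the library labelled female wt 14. Isl1, Isl2 and Prph of that list also mark sensory neurons. General neuron markers had 4 of 9 above 0, led by Nefm and Nefl (-0.25 ± 0.09 and -0.12 ± 0.08, SE; edgeR unadjusted p = 0.0164 and 0.163). Schwann cell markers (7 of 7 below 0, led by Drp2 and Dhh) summed to 68.8 to 1793 CPM in P278KY libraries and to 213 to 2449 CPM in wt libraries. Meninges and fibroblast markers (5 of 6 above 0, led by Pdgfra and Col1a2) summed to 1261 to 2546 CPM in P278KY libraries and to 858 to 3650.3 CPM in wt libraries, and microglia markers (7 of 7 tested above 0, led by Lpl and Gpnmb) to 127 to 192 CPM in P278KY libraries and to 111 to 185 CPM in wt libraries. Of the microglia list, Lpl was highest, at 77.1 CPM, in the library with the highest muscle marker sum (2412 CPM). The libraries next in Lpl, at 37.6 and 35.7 CPM, were also next in muscle sums, at 1239 and 941 CPM. Cx3cr1 was at 30.3 CPM in the first of these libraries and at 39.4 and 39.1 CPM in the others. The part of muscle RNA in the Lpl value was not tested, so the microglia sums cannot be read as microglia alone. None of these marker lists had a gene past the threshold, and their part in the values of the 10 genes was not tested beyond leaving out the library labelled female wt 14. The 10 genes together summed to 518 to 588 CPM in P278KY libraries and to 506 to 597 CPM in wt libraries. Gap43 averaged 275 CPM over all libraries, against 5.39 CPM for Gal and 5.43 CPM for Gadd45a. The sum thus follows mainly the abundant genes and says little about the scarce ones.

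**Figure D4:**
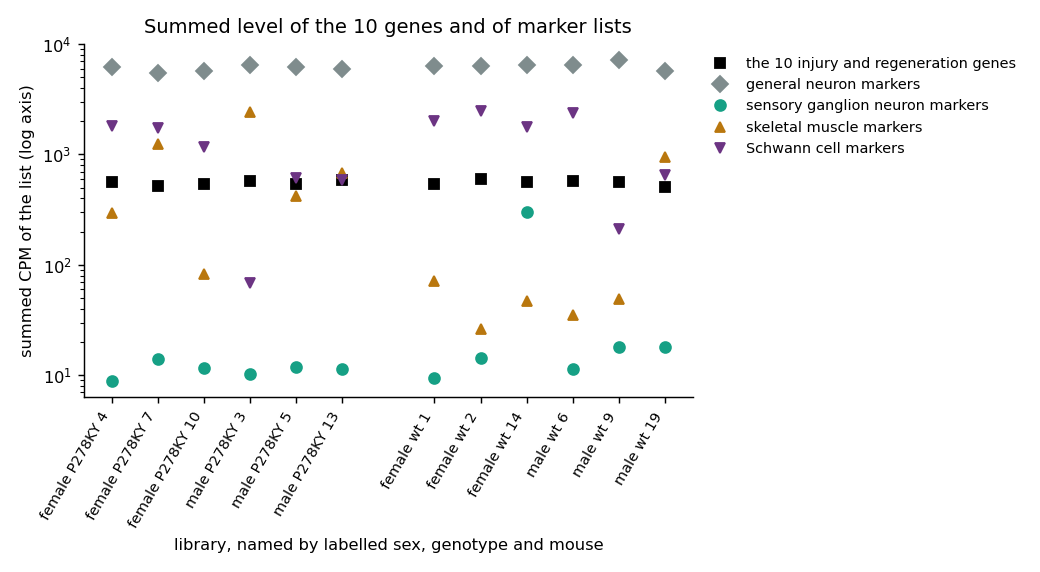
Summed CPM of the 10 genes and of 4 marker lists in each library on a log axis, P278KY libraries at left and wt at right. The sum of the 10 genes, to which Gap43 contributes most, lies between 506 and 597 CPM. Sensory ganglion markers reach 301 CPM in female wt 14 (by label), and muscle markers range from 26.3 to 2412 CPM.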

How the data were processed

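The submitters' processing notes name Bowtie2 2.2.0 and RSEM 1.2.12 without their roles. For the genome build, annotation and strand setting, the sources used here give nothing. The deposited expected counts are estimated fragments per gene, and TPM, also deposited, corrects for transcript length and library size, per the file headers. The deposited length is a mean over transcripts.

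Expected counts were rounded, filtered with filterByExpr and scaled with TMM factors. Genotype was tested with edgeR 4.0.16 quasi-likelihood (R 4.3.3) over 12 libraries with labelled sex as a term and Benjamini-Hochberg adjustment over 17995 genes. Effects within sexes and their interaction came from 1 mean per genotype and sex. SE is the log2 fold change over the root of F. CPM uses TMM-scaled totals, with a prior count of 2 for log2. DESeq2 1.42.0 and limma 3.58.1 served as alternatives, with RLE factors, library totals, other filters, no sex term and left-out libraries. Correlations used 100000 two-sided permutations. The procedure was tested on simulated data.

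The 10 genes and the lists were chosen with earlier results of these data known. All 10 are named, and from other lists the 2 genes with the smallest p, since none passed. Listed Adgrl1, Adgrl2 and Adgrl3 were matched by identifier to Lphn1, Lphn2 and Lphn3. Replicates are separate mice, and gene positions come from GENCODE M21, joined by Ensembl identifier.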

Additional observations from a re-analysis of the deposited data

How the results depend on the processing

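For the 10 genes 0 calls by genotype were made under every alternative run (21 settings, lowest edgeR, DESeq2 or limma adjusted p 0.897), and log2 fold changes stayed between -0.10 and 0.17. Signs of values near 0 turned: with limma-voom Sox11 was 0.00061 and Ecel1 0.00068, and Flrt3 was -0.0271 with limma-trend on log2(TPM + 1) and -0.0423 without both sex-discordant wt libraries. With single libraries left out the values ran from -0.0548 to 0.0193 for Gap43, -0.0837 to 0.0579 for Sox11, -0.0725 to 0.0409 for Npy, -0.0634 to 0.0240 for Ecel1 and -0.0222 to 0.0666 for Flrt3; the cause was not tested. Gal, Jun, Nts, Gadd45a and Vgf kept their sign in all 21, but with single libraries left out they ran from 0.056 to 0.152 for Gal, 0.0126 to 0.0941 for Jun, 0.0121 to 0.103 for Nts, 0.00911 to 0.136 for Gadd45a and -0.0752 to -0.00702 for Vgf. The order of the genes by size changed as well: without male wt 19 Gadd45a was at 0.136 and Gal at 0.0755. Within sexes and for the interaction 0 of the 10 were called in 15 alternatives each (lowest adjusted p 0.430, 0.780 and 0.411 for female, male and interaction). Over all genes the count of calls by genotype, 1 in the main test, was 1 to 3 with single libraries left out (3 without female wt 2, 2 without female P278KY 10), 0 with the strict filter (CPM above 1 in 6 libraries), 2 with no sex term, 33 with DESeq2 and 0 without both discordant libraries. No paired analysis was run, since each mouse has 1 genotype and the sample labels used here give no litter or pairing of mice. Depth limits the scarce genes: at the lowest count, counting error alone was 8.85% for Gadd45a, 8.64% for Gal and 8.03% for Sox11, against 1.18% for Gap43.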

Other observations

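In 20 groups of 6 libraries (10 genes in 2 genotypes), no library stood apart from its group in CPM by Dixon's gap ratio, whose largest value was 0.536 for Vgf in the library labelled male wt 19, below the 95% critical value for 6 libraries. With male wt 9 left out, Ecel1 had an unadjusted p of 0.0179 for the interaction of genotype and sex in edgeR (log2 difference -0.31 ± 0.11, SE; adjusted p = 0.519), and 0.0373 within libraries labelled male (0.20 ± 0.08). With female P278KY 10 left out, Vgf had an unadjusted p of 0.0494 within libraries labelled female (-0.18 ± 0.08, SE; edgeR adjusted p = 0.623). These were the 3 values of an unadjusted p under 0.05 among 660 values over all alternatives for the 10 genes. Each had a sex-discordant library on its wt side. Without male wt 9, the wt libraries labelled male were wt 6 and wt 19, and wt 19 held the lowest Ecel1 of all libraries (38.1 CPM). The library labelled female wt 14 held the highest Vgf (114 CPM).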
